A study of Mus musculus with 6 samples.

Results

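A set of 10 genes of the p53 and senescence network was followed in RNA-seq of cultured mouse cardiac fibroblasts (CFs). They are the transcription factor p53 itself (*Trp53*), its ubiquitin ligase *Mdm2*, the cyclin-dependent kinase (CDK) inhibitors *Cdkn1a*, *Cdkn2a* and *Cdkn2b*, the cell cycle and stress genes *Sfn*, *Ccng1*, *Gadd45a* and *Sesn2*, and the apoptosis gene *Bax*. They were taken by symbol from the 19446 genes of the table, all 10 were found, and all 10 passed the filter on low values that left 15948 genes (10 or more reads in 2 or more libraries). They were chosen by their roles but with their differences between the genotypes already known, that of *Sfn* above all, so the values below describe these genes and no p-value is given for any of them.

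CFs were grown out of pieces of atrial tissue of C57BL/6J mice, on fibronectin in IMDM with 20% FBS, and their poly(A) RNA was sequenced. The labels give 5 weeks of age, while the explant methods name littermate animals over a range of ages around it. Whether animals were pooled for a library, or WT and CharmeKO mice were littermates of each other, is not stated. Wild type (WT) and CharmeKO cultures gave 3 libraries each. In CharmeKO mice a poly(A) signal inserted into the germline *Charme* locus, which encodes a long noncoding RNA, ends its transcription early. The question is how fibroblasts of mice without this RNA differ. It is known mainly from cardiomyocytes, and the study describes it as very low or not expressed in adult CFs.

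p53 is held at low levels by Mdm2 and is stabilised by DNA damage and other stress. It then activates genes that stop the cell cycle, repair DNA or start apoptosis, and *Mdm2* itself, which closes a feedback loop. The *Cdkn2a* locus guards against continued division by a separate route, since p16Ink4a inhibits CDK4 and CDK6 and p19Arf inhibits Mdm2, and its products accumulate in fibroblasts kept in culture.

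The libraries held 38330019 to 46797446 reads assigned to genes. The *Charme* entry, taken to be the row without an Ensembl identifier because *Charme* was added to the annotation by hand, had 5, 15 and 11 reads in WT and 0, 6 and 3 in CharmeKO, or 11.01 ± 5.62 against 2.84 ± 2.96 normalised reads (mean ± SD, n = 3 here and throughout). It was lower in CharmeKO within each of the 3 pairs of same-numbered libraries, but the groups overlapped, and the 0 in CharmeKO 1 allows up to 2.88 normalised reads. Fibroblast markers were abundant in every library, with summed levels of 1113670 to 2243090 normalised reads in WT and 1470730 to 1770740 in CharmeKO (*Col1a1* highest, *Tcf21* lowest of 12). Normalised reads are each library's counts scaled by one factor of its own, so a value close to 1 is about 1 read. In such bulk RNA, fewer cells of a type and less RNA per cell cannot be told apart.

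*Sfn* was the gene among the 10 that differed most between the genotypes. It encodes stratifin, the 14-3-3 sigma protein, which p53 is known to induce in epithelial cells, where it holds cells in G2. The gene is a single exon on chromosome 4 (chr4:133600556-133602168, minus strand, GRCm38). Its 250 bases before the transcription start are shown because no match to the p53 half-site consensus, of either strand, lies in them, in contrast to other members below.

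Sfn, chr4:133602169-133602418, minus strand, GRCm38.p6: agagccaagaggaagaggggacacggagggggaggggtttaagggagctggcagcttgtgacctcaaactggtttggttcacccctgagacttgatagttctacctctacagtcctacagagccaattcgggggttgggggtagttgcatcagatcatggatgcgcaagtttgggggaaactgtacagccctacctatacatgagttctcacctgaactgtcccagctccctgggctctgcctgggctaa

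*Sfn* had 89.6, 70.5 and 125 normalised reads in WT 1 to 3 and 22.1, 13.8 and 17.4 in CharmeKO 1 to 3. The group means were 95.1 ± 27.8 and 17.8 ± 4.19, a ratio of 5.36 in favour of WT. All 3 WT libraries were above all 3 CharmeKO libraries, and the same order was seen within each pair.

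The fitted log2 fold change of *Sfn*, CharmeKO over WT on the log2(value + 1) scale, was -2.34 (SE 0.433), and the pairs differed by -1.97, -2.28 and -2.78. The lowest WT level was 3.19-fold the highest CharmeKO level, or 3.35-fold when libraries were scaled by their plain totals. These levels rest on few reads, 91, 66 and 114 in WT and 23, 14 and 20 in CharmeKO. The 95% Poisson intervals, which cover counting error only, did not meet, since the lowest reached down to 54.5 in WT and the highest reached up to 33.2 in CharmeKO. Genotype accounted for 93.7% of the variance of *Sfn* over the 6 libraries and replicate number for 4.36%, while the median tested gene had 5.91% and 73.8%. These figures describe *Sfn* and lend no support to a difference, since it was chosen with that difference known.

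In the fit across all 15948 genes (limma with Benjamini-Hochberg adjustment) no gene passed an adjusted p of 0.05, a share of 0.0%, and so none of the 10 genes was called. At an unadjusted p under 0.05 the same fit had 143 genes (0.897%). By fold change *Sfn* ranked 41 from the lowest. The edgeR quasi-likelihood test also called 0 genes (0.0%) and had 158 at an unadjusted p under 0.05. The DESeq2 Wald test called 8 genes (0.0502%), 2 higher and 6 lower in CharmeKO, and *Sfn* was the 1 member among them, from which nothing is read, since this difference was known when it was chosen. The study's methods give independent primary cell isolations for its experiments in general, but the labels do not tie each library to one, and if libraries share an isolation the p-values measure only the spread between these samples.

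Genes around *Sfn* and other 14-3-3 genes were set beside it. The 6 tested genes within 100000 bases of *Sfn* (*Zdhhc18*, *Gpn2*, *Gpatch3*, *Nudc*, *Pigv* and *Arid1a*) overlapped between the genotypes, with log2 fold changes from -0.19 for *Gpatch3* to 0.16 for *Pigv*. Among the 11 paralogues of the members, which include the other 14-3-3 genes, 0 were called, the median log2 fold change was -0.026, and the groups overlapped for all 11. The tested genes nearest to *Sfn* in their pattern over the 6 libraries were *Kcnc2*, *Sytl5* and *Tent2-ps1*, at root mean square differences of 0.231, 0.301 and 0.383 on the log2 scale. All 3 have low levels: *Kcnc2*, a voltage-gated potassium channel gene, had 9.61 to 17.6 normalised reads in WT and 0.983 to 3.85 in CharmeKO.

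*Sfn* is a gene of epithelial cells, so markers of such cells were set beside it. Of 19 epithelial and mesothelial markers, 13 had a row in the table used here and 10 were tested. Their summed level was 1830 to 13903 normalised reads in WT and 1295 to 16575 in CharmeKO, so that the groups overlapped. In the libraries numbered 1 most of this sum came from the mesothelial genes *Upk3b*, *Upk1b* and *Lrrn4*, so the sum says little of epithelial cells. *Upk3b*, a mesothelial marker and the highest of the list, had 4455 and 4537 normalised reads in WT 1 and CharmeKO 1 and 297 to 656 in the other libraries. The keratins differed among themselves. *Krt19*, the most abundant of them, was highest in WT 3, at 781, and lowest in CharmeKO 2, at 112, the libraries with the highest and the lowest *Sfn*. Its other 4 libraries had 148 in WT 1, 125 in WT 2, 173 in CharmeKO 1 and 157 in CharmeKO 3, so that among these CharmeKO was higher. *Krt18* and *Krt7* were highest in CharmeKO 2, at 75.7 and 77.7. *Cdh1*, which encodes E-cadherin, was at most 4.39 in any library, and *Krt15*, the lowest of the list, was 0 in all 3 WT libraries and 0.961 to 6.88 in CharmeKO. The part of epithelial cells in the *Sfn* difference was not tested.

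Smooth muscle and pericyte markers did lie on the same side as *Sfn*. All 14 had a log2 fold change below 0 (background 49.6%), with a median of -1.63, although 0 were called in the limma fit. Calls of the other fits were not read for the cell type lists. The study, which used DESeq2, chose *Myh11*, a gene of this list, for qPCR as one of its most significant genes in cultured CFs. The groups of 2 did not overlap, with CharmeKO lower (background 1.98%). Their median within libraries numbered 1, 2 and 3 was -0.15, -2.1 and -2.9, so libraries numbered 1 differed little. Their summed level was 35502 to 254945 normalised reads in WT and 13668 to 136240 in CharmeKO, so that the groups overlapped, with *Acta2* highest and *Abcc9* lowest. The part of these cells or of this state in the *Sfn* difference was not tested. Endothelial markers summed to 2699 to 3970 normalised reads in WT and 1241 to 5721 in CharmeKO (*Flt1* highest, *Pecam1* lowest), and haematopoietic markers to 2012 to 8628 and 1041 to 18608 (*Lyz2* highest, *Itgam* lowest). Cardiomyocyte markers, of which 4 of 10 had a row, summed to 225 to 783 and 233 to 1047 (*Tnnt2* highest, *Ryr2* lowest). These 3 lists overlapped between the genotypes.

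**Figure D1:**
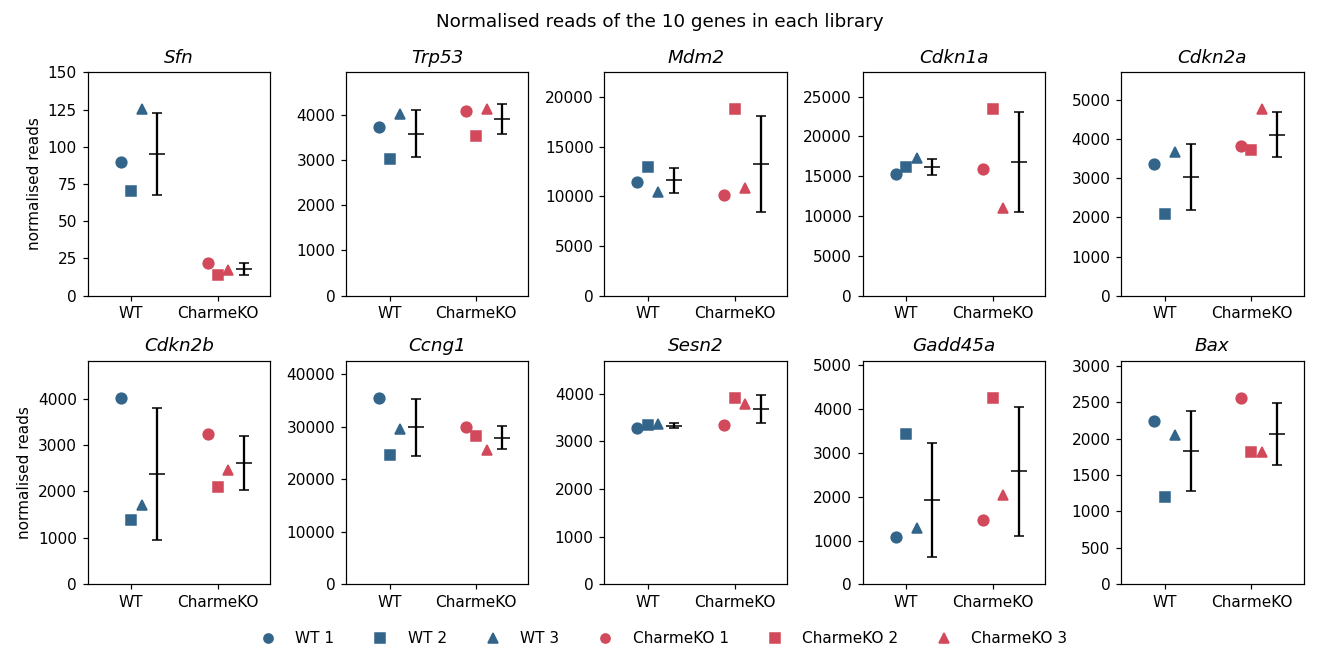
Normalised reads (vertical axes, each from 0) of the 10 genes in the 3 WT (blue) and 3 CharmeKO (red) libraries, with circle, square and triangle for replicates 1, 2 and 3 and the black bar for mean ± SD. Sfn lies at 70.5 to 125 in WT and 13.8 to 22.1 in CharmeKO, the Cdkn2a groups are separated by 1.46%, and the groups of the other 8 genes overlap.

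**Figure D2:**
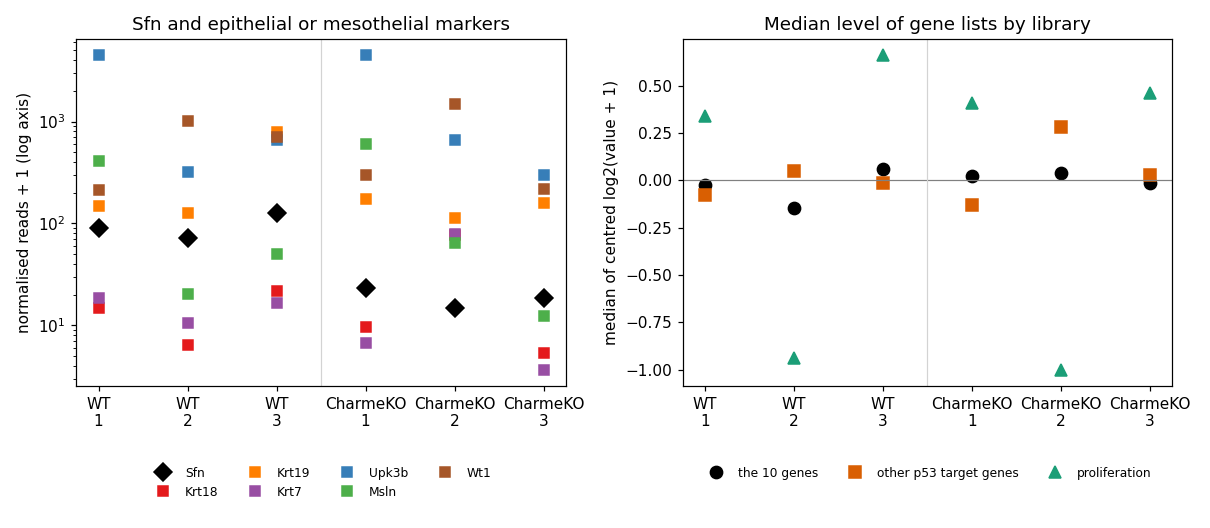
Left, normalised reads + 1 (log axis) of Sfn (black diamonds) and 6 epithelial or mesothelial markers (squares) in each library; right, the median over genes of log2(value + 1) centred on each gene's mean, for the 10 genes, the 40 other p53 target genes and 30 proliferation genes. Sfn divides by genotype and these 6 markers do not, and the proliferation median is -0.94 in WT 2 and -1.004 in CharmeKO 2 and above 0 in the other 4 libraries.

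*Trp53* and *Mdm2* form the feedback loop at the centre of the network. *Trp53* (chr11:69580359-69591873, plus strand, GRCm38) had 3732, 3013 and 4009 normalised reads in WT and 4089, 3531 and 4125 in CharmeKO. The means were 3585 ± 514 and 3915 ± 333, with a log2 fold change of 0.13 (SE 0.172), and WT 2 and CharmeKO 2 were the lowest library of their group. CharmeKO was higher within all 3 pairs, by 0.13, 0.23 and 0.041, and the groups overlapped.

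*Mdm2* (chr10:117688875-117710758, minus strand, GRCm38) had 11466, 12957 and 10404 normalised reads in WT and 10108, 18787 and 10842 in CharmeKO. The log2 fold change was 0.14 (SE 0.275), with pair differences of -0.18, 0.54 and 0.060. CharmeKO 2 stood above the other 5 libraries, which overlapped, and without it the log2 fold change was -0.14.

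The 250 bases before the starts of *Mdm2*, *Gadd45a* and, at its upstream start, *Cdkn1a* are shown next, since each holds a match to the p53 half-site consensus, the 10-base unit of which a full p53 site has a pair, printed in capitals.

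Mdm2, chr10:117710759-117711008, minus strand, GRCm38.p6: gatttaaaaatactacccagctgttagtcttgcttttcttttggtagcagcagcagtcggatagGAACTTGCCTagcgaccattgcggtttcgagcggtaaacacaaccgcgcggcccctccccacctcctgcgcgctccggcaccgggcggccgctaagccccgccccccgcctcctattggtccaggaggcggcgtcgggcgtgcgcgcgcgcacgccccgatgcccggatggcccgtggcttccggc
Gadd45a, chr6:67037408-67037657, minus strand, GRCm38.p6: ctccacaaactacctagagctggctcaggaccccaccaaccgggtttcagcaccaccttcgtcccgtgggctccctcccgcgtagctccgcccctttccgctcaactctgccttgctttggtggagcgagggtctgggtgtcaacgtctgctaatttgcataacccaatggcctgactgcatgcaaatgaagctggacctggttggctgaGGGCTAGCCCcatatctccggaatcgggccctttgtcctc
Cdkn1a upstream start, chr17:29090729-29090978, plus strand, GRCm38.p6: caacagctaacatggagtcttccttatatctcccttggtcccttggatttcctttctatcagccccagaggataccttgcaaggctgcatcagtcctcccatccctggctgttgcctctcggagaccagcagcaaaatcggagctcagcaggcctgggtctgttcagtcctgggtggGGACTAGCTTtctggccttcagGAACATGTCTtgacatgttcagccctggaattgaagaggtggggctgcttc

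The consensus was searched on both strands, and position -1 is the base before the start. *Mdm2* had GAACTTGCCT at position -186, *Gadd45a* GGGCTAGCCC at -40, and *Cdkn1a* GGACTAGCTT at -73 and GAACATGTCT at -51, which lie 2863 and 2841 bases before its downstream start. *Trp53* (GGACTTGCCC, -75), *Ccng1* (GGGCAAGCCT, -185) and *Bax* (AGGCAAGCTT, -201) also had a match. In all, 6 of 12 windows of the members held one, against 7.13% of 32851 promoter windows of the same length and 6.11% of 14450 windows of tested genes. The windows of *Sfn*, *Cdkn2a*, *Cdkn2b* and *Sesn2* held none, which says only that these letters are not there. A match likewise says only that the letters are there. Binding of p53 was not measured, and sequence outside these windows, such as introns, was not searched.

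The GC box letters GGGCGG, searched on both strands, were in 6 of the 12 windows (32.7% of all windows, 55.7% of those of tested genes), and TATAAA was in 1, that of *Trp53* (12.4% and 6.85%). GC content of the windows ran from 52.8% for *Trp53* to 78.4% for the upstream start of *Cdkn2a*.

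The 3 CDK inhibitors followed different patterns. *Cdkn1a* encodes p21, an inhibitor of CDK2 and the p53 target that arrests cells in G1 (chr17:29090976-29100727, plus strand, GRCm38). It had 15233, 16119 and 17236 normalised reads in WT and 15933, 23427 and 11001 in CharmeKO. The mean was 16196 ± 1004 in WT and 16787 ± 6257 in CharmeKO. CharmeKO 1 lay within the narrow WT range, CharmeKO 2 above it and CharmeKO 3 below it. The fitted log2 fold change was -0.015 (SE 0.294), and the pairs differed by 0.065, 0.54 and -0.65. It was 0.020 with plain totals, -0.29 without CharmeKO 2 and 0.26 without CharmeKO 3.

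*Cdkn2a* encodes p16Ink4a and p19Arf from separate start sites that share exons (chr4:89274471-89294653, minus strand, GRCm38). Reads were counted per gene, so the products cannot be told apart here. The windows before both starts, 12427 bases apart, show how unlike they are, with 78.4% GC at the upstream start, which gives p19Arf, and 60.0% at the downstream start, which gives p16Ink4a.

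Cdkn2a upstream start, chr4:89294620-89294869, minus strand, GRCm38.p6: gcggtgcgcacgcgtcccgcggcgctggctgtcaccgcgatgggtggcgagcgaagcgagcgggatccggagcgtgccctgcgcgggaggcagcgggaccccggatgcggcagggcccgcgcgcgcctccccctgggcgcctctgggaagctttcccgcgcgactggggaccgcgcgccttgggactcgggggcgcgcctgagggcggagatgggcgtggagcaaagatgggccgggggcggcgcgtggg
Cdkn2a downstream start, chr4:89282193-89282442, minus strand, GRCm38.p6: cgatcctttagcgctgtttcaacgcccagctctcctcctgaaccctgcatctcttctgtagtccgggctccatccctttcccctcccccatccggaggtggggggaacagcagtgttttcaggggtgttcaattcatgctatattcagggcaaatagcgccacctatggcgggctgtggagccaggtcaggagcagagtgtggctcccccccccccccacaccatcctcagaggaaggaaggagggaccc

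*Cdkn2a* had 3359, 2080 and 3662 normalised reads in WT and 3835, 3715 and 4764 in CharmeKO. The means were 3034 ± 840 and 4105 ± 574, the log2 fold change was 0.47 (SE 0.253), and CharmeKO was higher within the pairs by 0.19, 0.84 and 0.38. It was the other member whose groups did not overlap, but by a margin of 1.46% between CharmeKO 2 and WT 3 (3.06% with plain totals). Without WT 2, its lowest library, the log2 fold change was 0.22.

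*Cdkn2b*, the gene of p15Ink4b, lies beside *Cdkn2a* (chr4:89306299-89311039, minus strand, GRCm38), with 11646 bases between the gene bodies. It had 4014, 1395 and 1715 normalised reads in WT and 3247, 2101 and 2472 in CharmeKO. The libraries numbered 1 were the highest of each group, the groups overlapped, and the pairs differed by -0.31, 0.59 and 0.53. The log2 fold change was 0.27 (SE 0.413), and it was 0.73 without WT 1 and -0.033 without WT 2.

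The remaining p53 targets were led in level by *Ccng1*, which encodes cyclin G1 (chr11:40748552-40755311, minus strand, GRCm38). It had 35487, 24575 and 29564 normalised reads in WT and 30030, 28215 and 25576 in CharmeKO. All CharmeKO libraries lay within the WT range, and the log2 fold change was -0.084 (SE 0.224), with 0.049 without WT 1.

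*Sesn2* encodes sestrin 2, a stress-induced inhibitor of mTORC1 signalling (chr4:132492032-132510501, minus strand, GRCm38), and it was the steadiest of the 10 genes. It had 3277, 3342 and 3376 normalised reads in WT and 3341, 3915 and 3791 in CharmeKO. Its SD over the 6 libraries was 0.110 on the log2 scale, at percentile 3.05 of the tested genes. CharmeKO was higher within all 3 pairs, by 0.028, 0.23 and 0.17, but CharmeKO 1 lay inside the WT range, and the log2 fold change was 0.14 (SE 0.141).

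*Gadd45a*, a growth arrest gene induced by DNA damage (chr6:67035096-67037457, minus strand, GRCm38), varied with the replicate number. It had 1081, 3434 and 1279 normalised reads in WT and 1475, 4257 and 2033 in CharmeKO. WT 2 and CharmeKO 2 were far above the other libraries, and replicate number accounted for 88.4% of its variance, genotype for 10.6%. CharmeKO was higher within all 3 pairs, by 0.45, 0.31 and 0.67. The log2 fold change was 0.48 (SE 0.554, or 0.108 with the replicate number as a block), and it ran from 0.043 without CharmeKO 2 to 0.99 without WT 2.

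The tested genes nearest to *Gadd45a* in pattern were *Phyh*, *Gm16675* and *Chadl*, at root mean square differences of 0.118, 0.123 and 0.152 over the 6 libraries. *Phyh*, which encodes a peroxisomal enzyme of phytanic acid breakdown, had 1232 and 1711 normalised reads in WT 2 and CharmeKO 2 and 404 to 629 in the others. Annotated on the opposite strand of *Gadd45a* is *E230016M11Rik*, and of *Cdkn1a* *AC167363.2*, and the counts were made by strand.

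*Bax*, whose product permeabilises the mitochondrial outer membrane in apoptosis (chr7:45461697-45466898, minus strand, GRCm38), had 2241, 1200 and 2043 normalised reads in WT and 2557, 1814 and 1810 in CharmeKO. The groups overlapped, the log2 fold change was 0.20 (SE 0.287), and it was -0.075 without WT 2. Exons of *Bax* overlap those of *Gm45808* on the same strand, so that its reads are less certain.

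**Figure D3:**
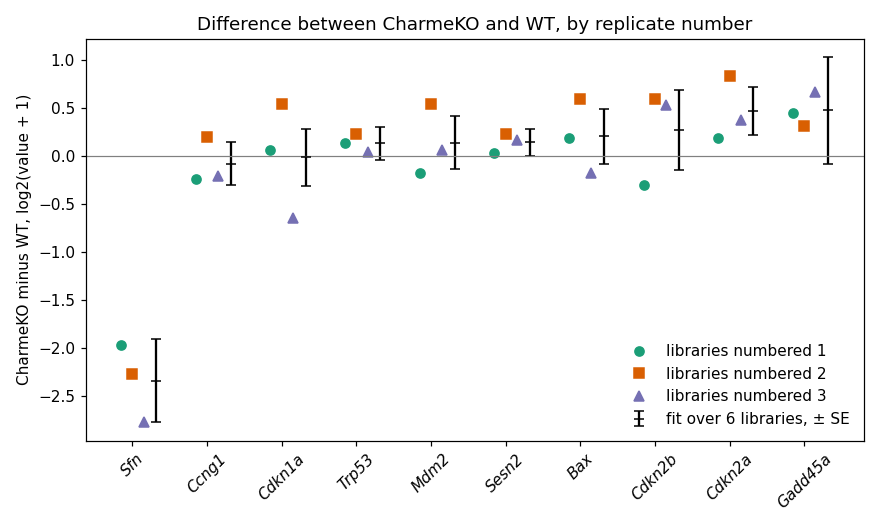
Difference CharmeKO minus WT in log2(value + 1) for each of the 10 genes (horizontal axis, in order of the fitted value), within libraries numbered 1 (circles), 2 (squares) and 3 (triangles), with the fit over the 6 libraries ± SE in black. Sfn lies at -1.97 to -2.78, Trp53, Cdkn2a, Sesn2 and Gadd45a are above 0 in all 3 pairs, and the other 5 genes have pairs on both sides of 0.

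Set side by side, 7 of the 10 genes had a log2 fold change above 0 and 3 below (background 49.6% below), with a median of 0.14 beside 0.0022 over all genes tested. The median within libraries numbered 1, 2 and 3 was 0.046, 0.42 and 0.050. *Sfn* was the 1 gene whose log2 fold change was 1 or more away from 0, which 5.04% of tested genes reached. The groups did not overlap, with CharmeKO lower, for 1 gene (*Sfn*, background 1.98%) and, with CharmeKO higher, for 1 (*Cdkn2a*, background 2.14%), 2 genes in all (background 4.11%). In all 3 pairs, 4 genes were higher (background 16.4%) and 1 was lower (background 14.0%).

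With the replicate number as a block, limma called 0 of 15948 genes (0.0%), and at an unadjusted p under 0.05 it had 857 genes (5.37%). The block lowered the SE of every member, to 0.108 for *Gadd45a*, 0.151 for *Cdkn2a* and 0.329 for *Sfn*, and rests on taking same-numbered libraries as pairs. DESeq2 with the block called 64 genes (0.401%), of which 26 were higher and 38 lower in CharmeKO, and *Sfn* was again the 1 member.

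By library, 4 of the 10 genes (*Mdm2*, *Cdkn1a*, *Sesn2* and *Gadd45a*) were highest in CharmeKO 2, where 17.1% of tested genes were, and 5 were lowest in WT 2, where 19.5% were. The median SD of the 10 genes over the 6 libraries was 0.362 on the log2 scale, beside 0.417 for all tested genes.

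Levels were compared between genes as normalised reads per kb of exon. *Ccng1* was the highest, at a mean of 8231 (range over libraries 6997 to 10100), above the whole range of *Cdkn1a*, which had 4642 (3096 to 6594). Then came *Cdkn2a* at 3045, *Mdm2* at 2445, *Cdkn2b* at 1792, *Gadd45a* at 1281, *Bax* at 1234, *Sesn2* at 1009 and *Trp53* at 927. From *Cdkn1a* to *Trp53*, each gene's range met that of the next, so neighbours in this order did not differ beyond their spread. *Sfn* stood far below, at 35.0 (8.53 to 77.6), with no library near the 745 of the lowest *Trp53* library. In percentiles of the tested genes, *Sfn* was at 27.0 and the other 9 genes at 87.3 to 99.0.

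Around the 10 genes, 8 lists of related genes were read from the same fit. The lists too were drawn up with earlier results of these data known, and 0 of their genes were called in any fit. All 40 other p53 target genes were tested, with a median log2 fold change of 0.076, 25 genes above 0 and 15 below (background 49.6% below). In all 3 pairs, 7 of them were higher (background 16.4%) and 2 lower (background 14.0%). The 2 with the lowest p were *Bbc3*, the gene of the apoptosis inducer PUMA, at 898 ± 139 in WT and 1193 ± 213 in CharmeKO (log2 fold change 0.40, SE 0.216), and *Fdxr*, a mitochondrial reductase gene, at 0.53 (SE 0.381). Both overlapped between the groups.

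Of the 40 targets, 15 (37.5%, background 17.1%) had their highest level in CharmeKO 2. Their median there was 0.28 above the gene means, with -0.13 to 0.050 in the other libraries, while the median of the 10 genes was 0.038 in CharmeKO 2 and 0.061 in WT 3, its highest. The within-pair median was 0.21 for libraries numbered 2, -0.020 for those numbered 1 and 0.050 for those numbered 3. *Btg2*, an antiproliferative p53 target chosen after its values were seen, had 23040 normalised reads in CharmeKO 2 and 12921 in WT 2.

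Proliferation genes did not go with genotype but with the libraries numbered 2. The median of 30 such genes, centred on each gene's mean, was -0.94 in WT 2 and -1.004 in CharmeKO 2 and 0.34 to 0.67 in the other 4 libraries, and their median log2 fold change was -0.058. The 2 with the lowest p, *Ung* (0.53, SE 0.544) and *Rrm1* (0.33, SE 0.338), overlapped. WT 2 and CharmeKO 2 were also the libraries with the highest *Gadd45a* and *Mdm2*, and the part of cell division in those levels was not tested.

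p53 regulators, 18 of them tested, had a median of -0.10. *Atr*, the kinase that signals stalled replication, had the lowest p of this list, which favours groups that do not overlap. It was at 1087 ± 222 in WT and 847 ± 66.4 in CharmeKO (log2 fold change -0.34, SE 0.203), and its groups did not overlap (background 1.98%). *Atm*, the kinase that signals double-strand breaks, was at -0.22 (SE 0.224), and its groups overlapped. The 23 CDK inhibitors and RB pathway genes had a median of -0.17, with 8 lower (background 14.0%) and 3 higher (background 16.4%) in all 3 pairs. This list pools CDK inhibitors with the kinases, cyclins and E2F genes of the same pathway, so its median does not describe the inhibitors. The inhibitors in it, *Cdkn1b*, *Cdkn1c*, *Cdkn2c* and *Cdkn2d*, were at 0.21, 0.44, 0.12 and 0.17. Each of them overlapped between the groups.

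*Cdk4*, the kinase that p16Ink4a inhibits, had 8455, 7271 and 7718 normalised reads in WT and 9744, 9914 and 9853 in CharmeKO. All CharmeKO libraries were above all WT libraries (background 2.14%), with a log2 fold change of 0.33 (SE 0.148). *E2f5*, a partner of RB family proteins, was at 410 ± 36.8 in WT and 319 ± 27.7 in CharmeKO (-0.36, SE 0.213), and its groups did not overlap (background 1.98%). *Cdk4* and *E2f5* were named for the lowest p of their list, which favours groups that do not overlap.

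Regulators of the *Cdkn2a* locus, 16 genes, had a median of 0.018. *Tbx2*, a T-box repressor known to act on *Cdkn2a* and *Cdkn1a*, had 259, 564 and 1678 normalised reads in WT and 253, 109 and 92.2 in CharmeKO. The lowest WT library was scarcely above the highest CharmeKO library (background of groups not overlapping, CharmeKO lower, 1.98%), and the log2 fold change was -2.19 (SE 0.733). *Tbx2* too was named for the lowest p of its list, which favours groups that do not overlap. *Suz12*, a subunit of Polycomb repressive complex 2, was at -0.19 (SE 0.176), and its groups overlapped.

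Senescence markers and secreted factors (28 tested) had a median of 0.17 in the fit but 0.58 in the pair numbered 2 and -0.29 in that numbered 3, and the fitted median was -0.058 without CharmeKO 2. This list joins genes of nuclear proteins, *Hmgb2* among them, with secreted factors. Such genes need not move in the same direction in senescent cells, so the median is not a measure of senescence. The 2 with the lowest p were *Hmgb2* (0.24, SE 0.182), a chromatin protein gene, and *Areg* (1.07, SE 0.991), which encodes amphiregulin and had 1.07 to 32.2 normalised reads. The 10 BCL2 family genes had a median of -0.059. They include genes that block and genes that promote apoptosis, so this median has no direction for apoptosis. The 2 with the lowest p were the anti-apoptotic *Bcl2* at -0.21 (SE 0.207) and *Bad*, whose product promotes apoptosis, at 0.19 (SE 0.190). Among the paralogues of members the lowest p belonged to *Sesn1* (0.28, SE 0.515) and to *Ywhaq*, the gene of 14-3-3 theta (-0.095, SE 0.272). All 6 of these genes overlapped between the groups.

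**Figure D4:**
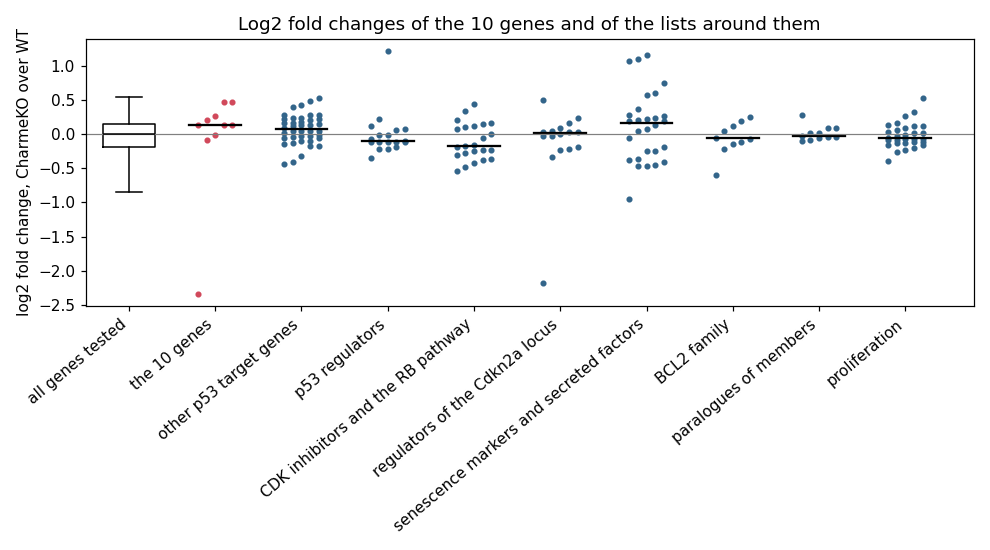
Log2 fold change, CharmeKO over WT, of each tested gene (points) of the 10 genes and of 8 lists around them, with the median as a black bar; the box spans the quartiles of all 15948 tested genes with its whiskers at the 5th and 95th percentiles. The median is 0.14 for the 10 genes and lies between -0.17 and 0.17 for the lists, and Sfn (-2.34) and Tbx2 (-2.19) are the points below -2.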

How the data were processed

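Poly(A) RNA of 3 WT and 3 CharmeKO libraries of cultured CFs had been sequenced with a directional kit. The deposited values are a normalised signal per gene: per the methods, the authors aligned reads with STAR (build named as GRCm39), took its counts for the reverse strand on an Ensembl release 87 annotation with *Charme* added, dropped genes of low count and applied DESeq2 normalisation. Tool versions are not given in the sources used here. Such counts keep uniquely mapped reads of a single gene. Native CFs were not analysed here.

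Each value divided by the smallest step of its column gave whole reads for 100% of 116676 values (tolerance 1e-06, largest deviation 6.3e-09), which gave the depths and the reads for edgeR and DESeq2. Genotypes were compared by limma on log2(value + 1) with its trend option, two-sided, with genotype as the single term. This ran on the 15948 genes for which 2 or more libraries had 10 or more reads, at a Benjamini-Hochberg threshold of 0.05. A fold change on this scale understates that of low genes. Alternatives were pseudocounts of 0.5 and 5, other filters and scalings, edgeR, DESeq2, the replicate number as a block, and leaving out each library. The scripts were tested on simulated data. R 4.3.3, limma 3.58.1, edgeR 4.0.16, DESeq2 1.42.0, Python 3.11.15 and matplotlib 3.10.9 were used.

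The members and the gene lists were chosen with earlier results of these data known. Named genes were the members, the *Charme* entry, the 2 genes of lowest limma p in each of 8 lists, the 3 genes nearest in pattern to each of the 2 most variable members, and the highest and lowest marker of each cell type. Genes named outside this rule are *Sfn* neighbours, chosen by position, markers set beside *Sfn*, and those said to be chosen after their values were seen. Deviations of same-numbered libraries from their group means had r = 0.762, 0.514 and 0.217 for numbers 1, 2 and 3, each over the minimum of 0.1. Other combinations ran from -0.643 to 0.222, and WT 2 with CharmeKO 3, at 0.222, was above number 3. This minimum therefore does not show number 3 to be a pair. The numbers were still taken to pair the libraries, although the labels do not say what they share, so differences within pairs are descriptions. Positions, exon lengths and promoters come from GENCODE M21 and RefSeq on GRCm38, not from the build named for the alignment, and the table itself holds no coordinates. Promoter windows are the 250 bases before each RefSeq start, and all 10 members matched by symbol, with 12 windows.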

Additional observations from a re-analysis of the deposited data

How the results depend on the processing

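The count of genes past the adjusted threshold, 0 in limma, became 8 under DESeq2's Wald test. It became 64 when DESeq2 took the replicate block as a term. The count of members was then 1 and 1, *Sfn* in both. The replicate block in limma or edgeR changed no call, and no gene of the 8 lists around the members was called under any alternative. The cause of the difference between the tools was not tested. The median log2 fold change of the members, 0.14, ran from -0.0016 without WT replicate 2 to 0.25 without CharmeKO replicate 3, and from 0.135 to 0.174 under the other alternatives. *Sfn* ran from -2.54 to -2.13 with a library left out and from -2.42 to -2.12 otherwise. *Sfn*, *Trp53*, *Cdkn2a*, *Sesn2* and *Gadd45a* kept their sign under all 17 alternatives. A kept sign can still be a value near 0, since *Trp53* fell to 0.014 without WT 2 and *Gadd45a* to 0.043 without CharmeKO 2. *Cdkn1a* changed sign under 5, with edgeR and DESeq2 at up to 0.055, and *Mdm2*, *Cdkn2b*, *Ccng1* and *Bax* under 1 each, when a library named beside them was left out. Among the lists, the median changed sign for the other p53 targets (-0.065 at the lowest), the RB pathway (0.035 at the highest), the *Cdkn2a* regulators, the senescence list, the paralogues and the proliferation genes in 1 to 4 alternatives each. With 3 libraries a group and 14 to 114 reads, the level of *Sfn* is known only coarsely. At the depths of the other 9 genes, the spread between libraries and not the read count limited the comparison.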
